A study of Spirodela polyrhiza and Pistia stratiotes and Colocasia esculenta with 79 samples.

Results

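In 122 genes of Pistia stratiotes, the free-floating water lettuce, the balance between the transcripts listed for the gene differed by at least 30 percentage points between 2 of 5 dissected body regions. The table of Pistia expression listed 19647 transcripts, called rows here, for 16165 genes, and 2315 genes had 2 or more rows. A row's share was its TPM divided by the summed TPM of its gene in the same library, TPM being an abundance scaled by transcript length to a common total per library. Of the 2315 genes, 1808 had a summed mean of at least 5 TPM in each region and could enter. The 122 were those where the mean share of at least 1 row differed by 0.3 or more between 2 regions, and they held 382 rows. The row with the widest difference is called the switching row. Because the shares themselves chose these genes, the shares are given as descriptions without tests. The summed levels, which the rule used for the minimum and as the divisor of every share, were fitted separately.

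The study dissected 4 plants of the arum family into regions and sequenced their poly-A RNA, and only the Pistia table listed genes with several rows. The tables of Lemna, Spirodela and Taro listed 1 row for each of 14856, 16332 and 19418 genes, and the 4 tables together held 66771 genes. The Pistia libraries came from the regions labelled Apical, Basal, Petiole, Stem and Stolon (n = 4 biological replicates each), from plants kept at 22 °C under fluorescent light. No strain or treatment is named for Pistia, and the labels do not say whether replicates came from separate plants. The stolon is the runner that joins a mother rosette to its daughters, and the petiole is the stalk of a leaf. No gene names, roles or sequences go with the identifiers in the sources used here, so the genes are described by identifier and level alone and the region labels were not checked against marker genes. In a bulk sample, a row present in fewer cells and a row present at a lower level per cell cannot be told apart.

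A plant gene can give rise to several transcripts through alternative splicing, alternative start sites or alternative ends of the messenger RNA. Intron retention is a frequent form of alternative splicing in plants. Such transcripts can encode different proteins, or can carry early stop codons that expose them to nonsense-mediated decay. A change in the level of a gene and a change in the balance of its transcripts are separate quantities, and both are given below.

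One library stood apart from the others of its region. In Apical replicate 4 the share of the switching row lay on average 25.3 percentage points from the median of its region over the 122 genes, against 7.74 to 13.0 points in the other 19 libraries. Over all 1808 eligible genes its mean distance was 15.7 points, against 3.97 to 5.43 points elsewhere. The leading row, the row with the highest mean share, held on average 69.6% of the gene's TPM in this library, against 78.7% to 81.4% in the other 19. Its leading-row share was the lowest of all 20 libraries in 607 of the 1808 genes, against 32 to 104 genes for each other library. The 10 most abundant rows held 11.9% of its TPM, against 16.2% to 16.9% in the other Apical libraries, and 14327 rows reached 1 TPM in it, against 14761 to 15003. Its part in the results was measured by leaving it out. Without it, 91 of 1802 eligible genes passed the same rule, and 81 of the 122 were among them. All 41 genes that no longer passed had Apical as 1 of their 2 widest regions. This was fixed by the rule, so nothing is read from it. Leaving out an Apical library changes only Apical means, and a difference between 2 other regions stays as it was.

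**Figure D1:**
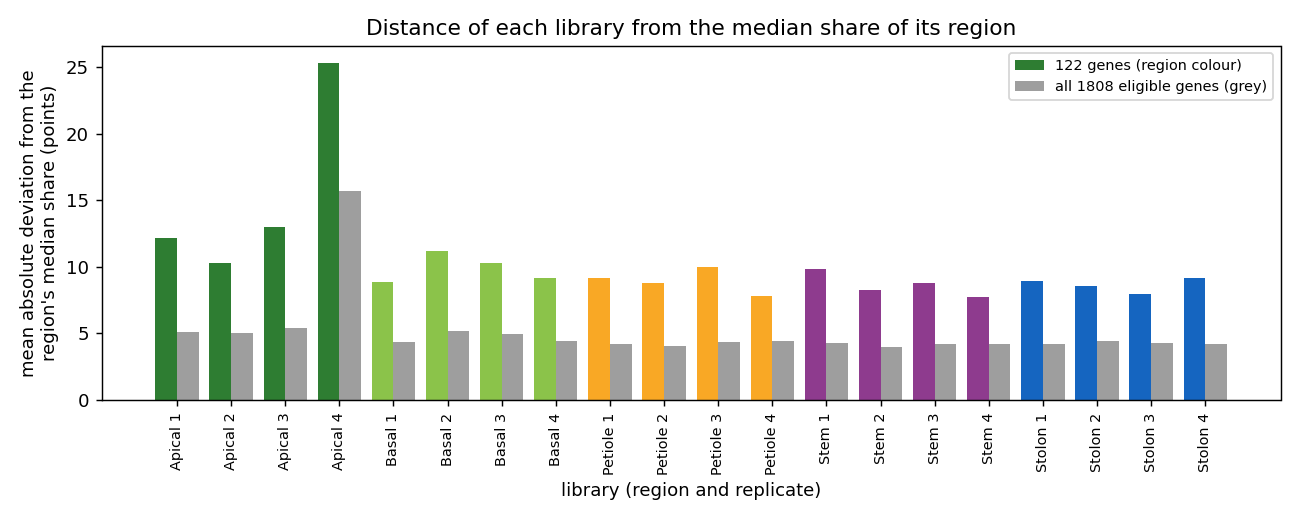
Mean absolute distance, in percentage points, of each of the 20 libraries from the median share of its region, over the 122 genes and over all 1808 eligible genes. Apical replicate 4 stands at 25.3 and 15.7 points, above every other library.

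The 122 genes ranged widely in level and in number of rows. Their total, averaged over the 5 region means, had a median of 20.1 TPM and ran from 7.90 to 4472 TPM, against a median of 31.5 TPM over the eligible genes. 60 of the 122 (49.2%) were under 20 TPM, against 28.8% of the eligible genes, and 8 reached 100 TPM. 56 genes had 2 rows, 33 had 3, 17 had 4 and 16 had 5 or more, up to 9. Over the eligible genes 67.6% had 2 rows and 4.87% had 5 or more. The widest difference in mean share was 36.9 percentage points in the median gene and 82.5 points at most. Just inside the limit of 30 points were Pis15626, Pis13091 and Pis03564, at differences of 30.1 points each, and just outside were Pis18212 at 29.8 points and Pis00514 and Pis17116 at 29.7 points each.

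Apical was the region most often involved. It was 1 of the 2 regions with the widest difference in 90 of the 122 genes, Stolon in 45, Stem in 44, Basal in 37 and Petiole in 28. The widest difference joined Apical or Basal with Petiole, Stem or Stolon in 97 genes, lay between Apical and Basal in 15 and lay among Petiole, Stem and Stolon in 10. Apical against Stem and Apical against Stolon each accounted for 29 genes. Over all 122 genes, the median difference in the share of the switching row was 28.7 points and 30.1 points in these pairs. Between Petiole and Stolon it was 8.66 points, the smallest of the 10 pairs, and 4 genes reached 30 points there. Without Apical replicate 4 the leading place of Apical was smaller, at 55 of 91 genes, against 39 for Stem, 34 each for Basal and Stolon and 20 for Petiole. The pairs that joined Apical or Basal with another region then made up 69 of the 91.

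In 63 of the 122 genes (51.6%) the leading row differed between regions, against a background of 10.7% over the 1808 eligible genes. In 68 (55.7%) the 4 libraries of 1 of the 2 widest regions did not overlap the 4 of the other, with a background of 23.2%. The remaining 54 genes had overlapping libraries in the very regions that put them past the limit. Both backgrounds rest on the shares that chose the genes, so nothing is read from the gap between the counts. In 41 genes (33.6%; background 4.65%) the libraries did not overlap and the leading row also differed. In 90 of the 122 (73.8%; background 51.6%) the switching row and the rest of the gene moved in opposite directions between the 2 widest regions. In the other 32 both parts moved the same way, by different amounts. Without Apical replicate 4, 61 of the 91 genes had no overlap (background 27.9%) and 60 had different leading rows (background 9.21%).

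The spread between libraries was wide for many of these genes. The standard deviation of the switching row's share within a region, averaged over the 5 regions, had a median of 13.9 points over the 122 genes, against 5.63 points over the other 1686 eligible genes. Rows were sought that stood at 0 in some library and at 5 TPM or more in another library of the same region. Only the regions that gave a gene its widest difference were searched. Such a row was found in 71 of the 122 genes (58.2%; background 32.7%). This held for 50 of the 54 genes with overlapping libraries (92.6%; background 36.4%) and for 21 of the 68 without overlap (30.9%; background 20.3%). Such a row can itself spread the shares of its region and make libraries overlap, so nothing is read from this gap.

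**Figure D2:**
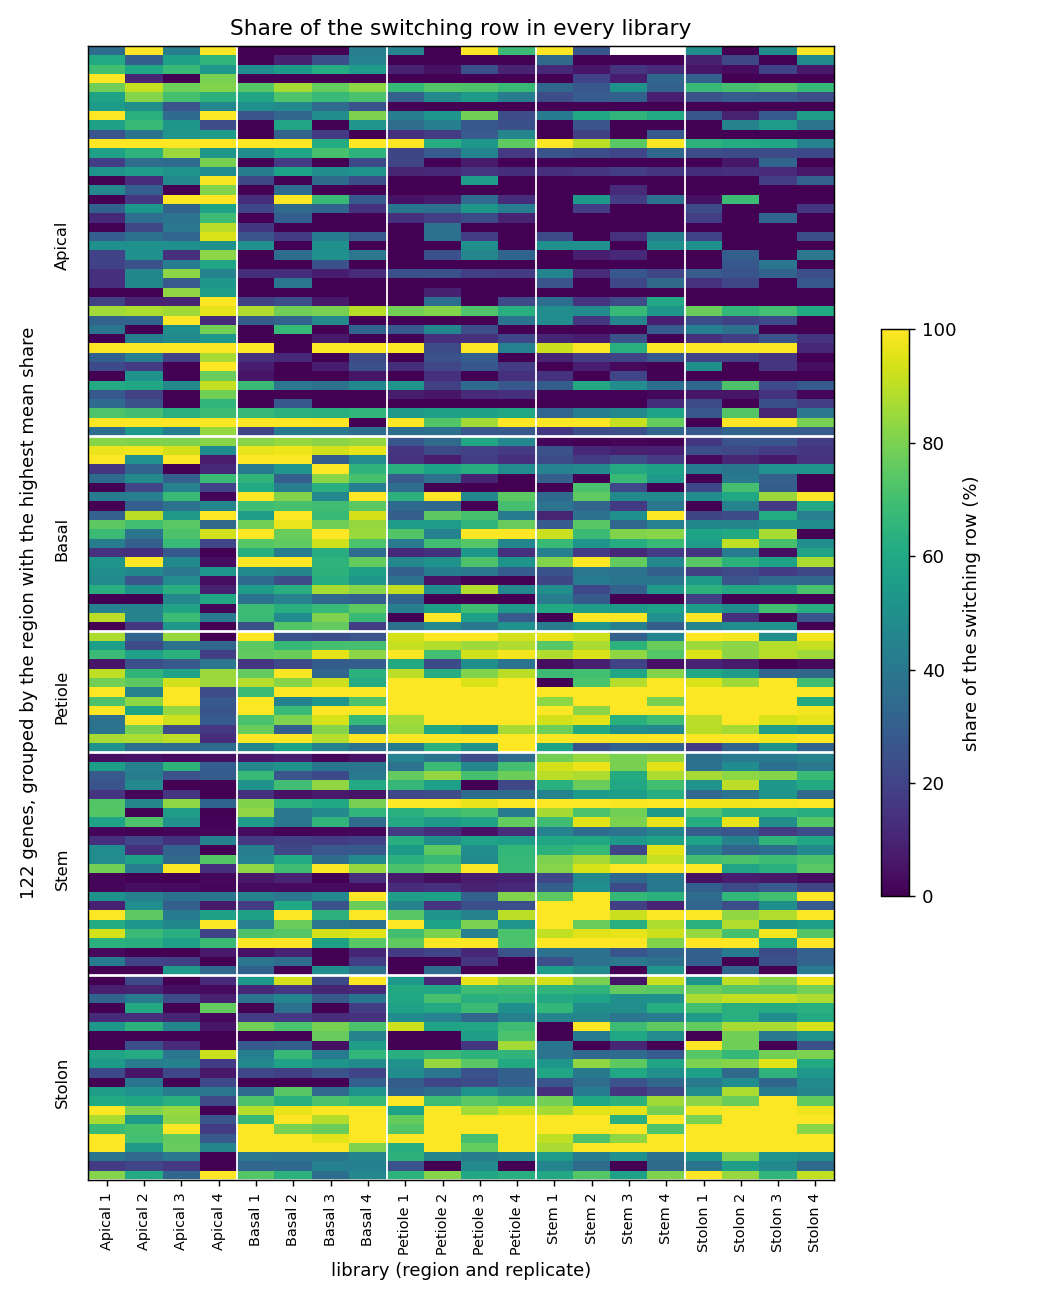
Share of the switching row, in percent, in each of the 20 libraries for the 122 genes, with genes grouped by the region of the highest mean share. White marks a gene with a total of 0 in a library, which occurs in Stem replicates 3 and 4 of Pis11714. The column of Apical replicate 4 differs from its 3 neighbours in many genes.

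A stricter pattern was found in 27 genes, where the shares of all 20 libraries fell into 2 sets of regions with no overlap (22.1% of the 122; background 3.43%, which rests on the same shares). In 13 of these Apical and Basal were separated from Petiole, Stem and Stolon. Stem stood alone in 7, Apical in 3, Stolon in 2 and Basal in 1, and Stem and Stolon stood together in 1. The leading row differed between regions in 21 of the 27, and the switching row and the rest of the gene moved in opposite directions in 19. These 27 genes had a median total of 41.5 TPM and a median spread of 6.58 points within a region, against 16.2 points in the other 95 members. Shares can separate without overlap more easily where they vary little within a region, so nothing is read from this gap in spread. Without Apical replicate 4, 26 of the 27 still passed the rule. The exception was Pis01649, whose widest difference was then 27.0 points. Of the 91 genes that passed without it, 28 had such a separation of the 19 libraries (background 4.27%). The genes described next are those of the naming rule: the 10 widest differences, and the genes with the highest totals among those with no overlap and different leading rows.

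Pis10158 had the widest difference of all, at 82.5 percentage points between Basal and Stem. The share of Pis10158.t2 was 82.0%, 81.2%, 80.5% and 82.3% in Apical and 81.7%, 84.7%, 82.7% and 84.0% in Basal. In Petiole it was 26.7%, 34.5%, 59.0% and 46.4%, in Stolon 15.8%, 25.5%, 26.5% and 17.8%, and in Stem 1.23%, 0%, 1.34% and 0.70%. Apical and Basal libraries were thus high and close together, Petiole and Stolon were intermediate, and Stem was almost without this row. The level of Pis10158.t2 was 116 ± 21.1 TPM in Apical and 0.30 ± 0.23 TPM in Stem (SD, n = 4 each), with every Apical library above every Stem library. Pis10158.t1 went the other way, at 17.5 ± 4.06 TPM in Apical and 30.8 ± 2.27 TPM in Stem, again with no overlap between the libraries. The total of the gene was 143 ± 25.9 TPM in Apical and 36.0 ± 2.28 TPM in Stem, and the log2 difference of the totals was -1.94 (SE 0.16, Stem minus Apical, on the log2(TPM + 1) scale). Of the 3 rows of this gene, t1, which stood far below t2 in Apical, thus led in Stem, where the total was lower.

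Pis14142 was the most abundant of the 122 genes. Its total was 10895 ± 2120.2 TPM in Apical and 10678 ± 1546 TPM in Basal, against 388 ± 40.6 in Petiole, 282 ± 41.7 in Stolon and 114 ± 16.8 in Stem (SD, n = 4 each). The share of Pis14142.t1 was 96.9%, 98.0%, 93.4% and 48.6% in Apical and 96.4%, 97.6%, 93.4% and 96.4% in Basal. It lay between 15.2% and 22.5% in Petiole, between 8.80% and 24.9% in Stem and between 15.9% and 24.0% in Stolon. Both rows had higher means in Apical and Basal, t1 by far more, so the leading row was t1 there and t2 in the other 3 regions. The libraries of Pis14142.t2 overlapped between Apical, at 243 to 4642 TPM, and Petiole, at 285 to 347 TPM. Apical replicate 4 departed from its neighbours: Pis14142.t2 stood at 4642 TPM in it, against 243 to 600.4 TPM in the other 3 Apical libraries. Without that library the Apical mean share was 96.1% in place of 84.2%, and the difference between Basal and Stem does not involve it.

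The leading row differed between Apical and Stem in Pis17336 and Pis03012, whose totals limma did not call different between these 2 regions, which does not show them to be equal. The share of Pis17336.t1 was 3.66%, 4.96%, 2.93% and 4.29% in Apical and 78.8%, 84.0%, 80.0% and 83.7% in Stem. Basal lay between 1.77% and 8.52%, Petiole between 22.7% and 44.5% and Stolon between 37.1% and 44.9%. Stem libraries were above all others, and Petiole and Stolon overlapped each other between the extremes. Pis17336.t1 stood at 1.36 TPM in Apical and 27.3 TPM in Stem on average, while Pis17336.t2 stood at 20.4 to 45.5 TPM in the Apical libraries and 4.51 to 7.04 TPM in the Stem libraries. The total was 37.0 ± 16.5 TPM in Apical and 33.5 ± 4.22 TPM in Stem (SD, n = 4 each). The totals differed by -0.06 (SE 0.26) on the log2(TPM + 1) scale, Stem minus Apical.

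Pis03012 had 5 rows and a low total of 6.33 to 9.97 TPM over the 5 region means. The share of Pis03012.t7 was 8.58%, 9.52%, 3.82% and 3.04% in Apical, and 11.6%, 15.8%, 10.4% and 12.4% in Basal. It was between 59.9% and 68.8% in Petiole, between 65.2% and 75.9% in Stem and between 73.9% and 79.1% in Stolon. The gap of 44.1 points between the highest Basal and the lowest Petiole library was the widest gap among the 27 separated genes. In Apical the rows Pis03012.t3 and Pis03012.t2 led with mean shares of 49.7% and 36.7%, and in Stolon these held 1.08% and 2.08%.

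**Figure D3:**
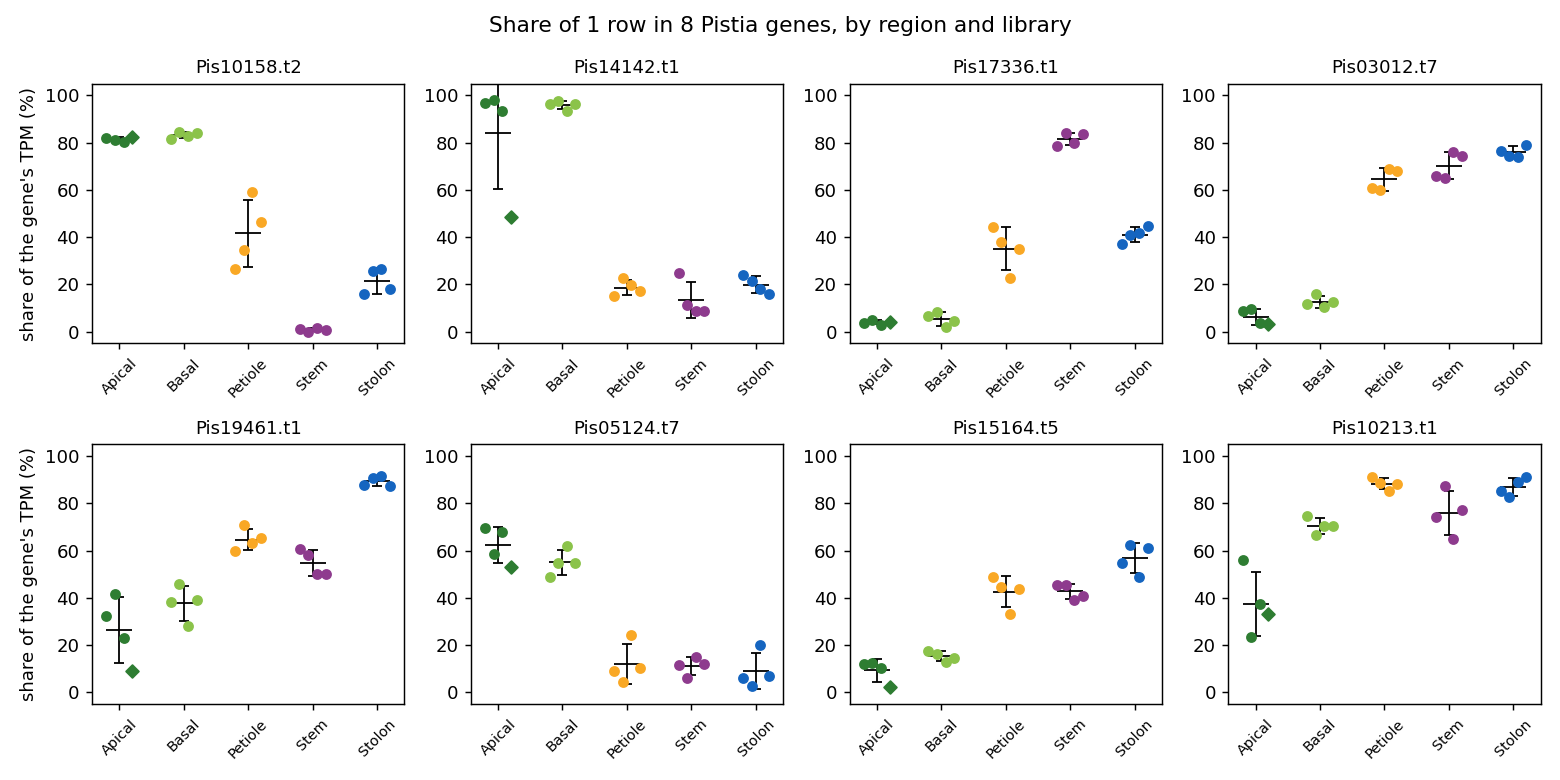
Share of the switching row, in percent, in 8 genes by region, with 1 point per library, a bar for the mean ± SD (n = 4) and a diamond for Apical replicate 4. In Pis10158.t2, Pis14142.t1 and Pis05124.t7 Apical and Basal are high, in Pis03012.t7 and Pis15164.t5 they are low, Stem is highest in Pis17336.t1 and Stolon in Pis19461.t1.

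Stolon stood alone in Pis19461. The share of Pis19461.t1 was 87.7%, 90.7%, 91.4% and 87.6% in Stolon, between 59.8% and 70.7% in Petiole and between 50.2% and 60.5% in Stem. It was 32.1%, 41.6%, 23.2% and 8.98% in Apical and between 28.0% and 45.9% in Basal. Every Stolon library lay above all others, and every Petiole and Stem library lay above every Apical and Basal library. The level of Pis19461.t1 was 21.4 TPM in Apical and 288 TPM in Stolon on average, while Pis19461.t2 lay between 45.5 and 69.3 TPM in Apical and between 24.5 and 39.8 TPM in Stolon. The total was 76.7 ± 18.2 TPM in Apical, 228 ± 46.2 in Petiole and 323 ± 38.8 in Stolon (SD, n = 4 each), so the higher total in Stolon lay in t1. Without Apical replicate 4 the widest difference was 57.0 points in place of 62.9.

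Pis15164, with 7 rows and totals above 1000 TPM in every region, had 3 leading rows. The share of Pis15164.t5 was 12.1%, 12.5%, 10.2% and 2.37% in Apical and between 12.9% and 17.7% in Basal. In Petiole it was between 33.2% and 48.7%, in Stem between 39.1% and 45.6%, and in Stolon 54.6%, 62.5%, 48.6% and 61.2%. Apical and Basal libraries were all below the others, and Stolon overlapped Petiole by a narrow margin. Row t1 led in Apical with a mean share of 43.4%, row t2 in Basal with 49.5%, and t5 in the other 3 regions. The total was 1214 ± 487 TPM in Apical and 1756 ± 586 TPM in Stem (SD, n = 4 each), whose libraries overlapped.

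In Pis05124 the balance between 3 rows differed. The share of Pis05124.t7 was 69.7%, 58.7%, 67.9% and 53.3% in Apical and between 48.7% and 61.9% in Basal, against at most 24.4% in every library of Petiole, Stem and Stolon. Pis05124.t9 was listed at 0 in 3 Apical libraries and at 0.272 TPM in Apical replicate 1, and it lay between 24.6 and 61.4 TPM in Stem. Pis05124.t11 led in Petiole, Stem and Stolon with mean shares of 58.2%, 51.8% and 55.5%. The total of this gene followed the replicate number as well as the region. In each of the 5 regions it was highest in replicate 3 and lowest in replicate 2, which gave 53.3 ± 54.0 TPM in Apical and 123 ± 49.0 TPM in Stem (SD, n = 4 each). The share of Pis05124.t7 was likewise highest in replicate 3 and lowest in replicate 2 in Petiole, Stem and Stolon. In Petiole these were 24.4% and 4.58%. In Basal the share was highest in replicate 3, and in Apical it was highest in replicate 1.

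**Figure D4:**
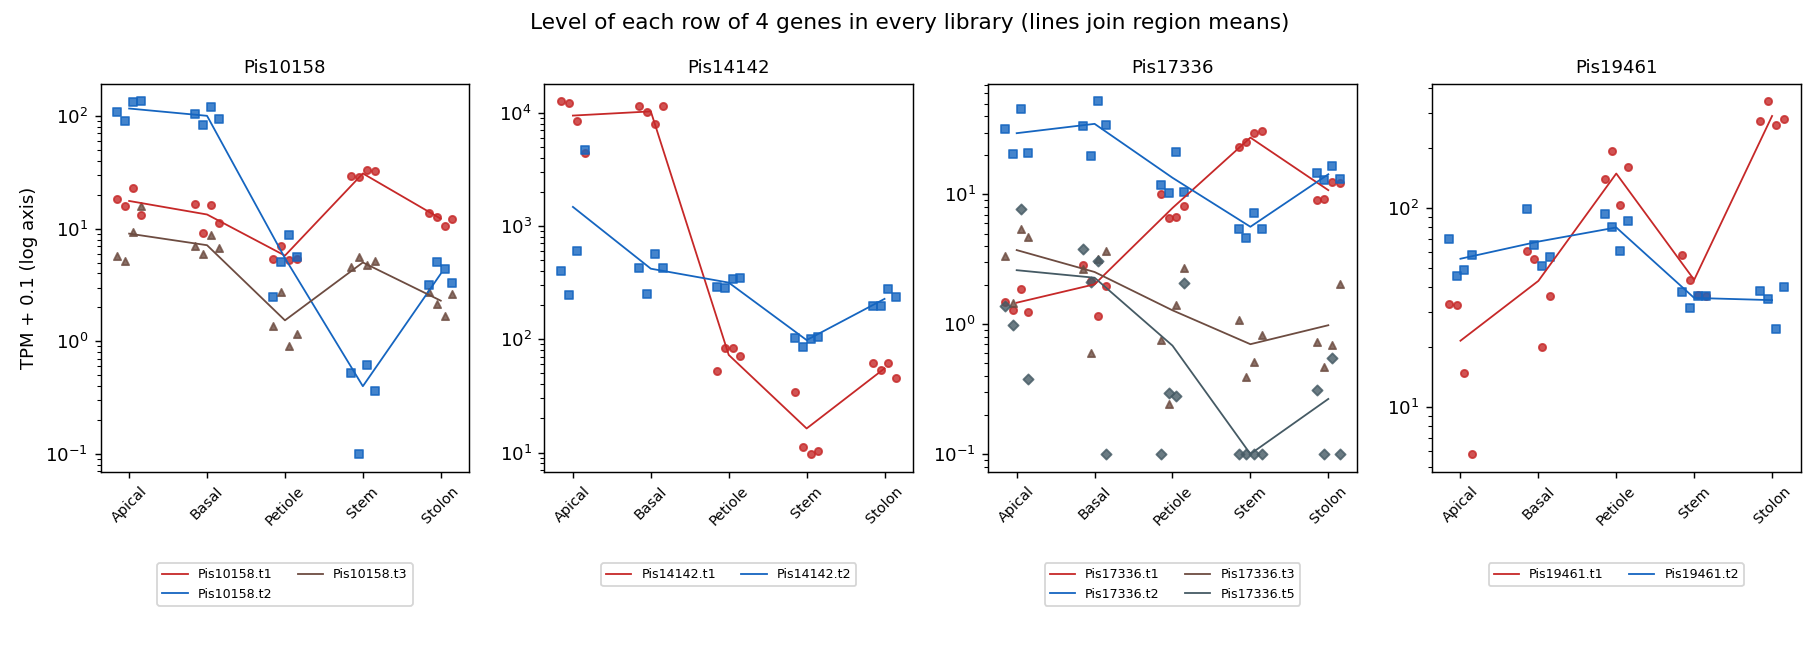
Level of each row of Pis10158, Pis14142, Pis17336 and Pis19461 in every library, as TPM + 0.1 on a log axis, with lines joining the region means. Rows cross between Apical and Stem in Pis10158 and Pis17336, and the means of both rows of Pis14142 are lower in Petiole, Stem and Stolon than in Apical and Basal.

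Pis10213 and Pis07962 were among the genes of higher total with a smaller separation. The share of Pis10213.t1 was 56.0%, 23.4%, 37.4% and 33.0% in Apical, below the range of 64.7% to 91.3% in the other 16 libraries. Its total was 6.63 ± 1.93 TPM in Apical and 72.1 ± 12.5 TPM in Petiole (SD, n = 4 each), and Pis10213.t3 lay between 2.67 and 5.59 TPM in Apical and between 7.23 and 9.72 TPM in Petiole. The low share in Apical thus came with a low level of t1, at 2.57 TPM against 63.9 TPM in Petiole. The share of Pis07962.t4 was 80.3%, 86.4%, 77.8% and 91.2% in Stem, and 73.4% or less in all other libraries, the 73.4% being Apical replicate 4. Pis07962.t3 lay between 6.94 and 31.8 TPM in Stem and between 66.2 and 245 TPM in Apical and Basal, while t4 stayed between 125 and 146 TPM in Stem and between 109.6 and 144 TPM in Basal.

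The other separated genes were chosen for mention after their values were seen. Among those in which Apical and Basal stood apart, the share of Pis04845.t6 lay between 42.2% and 58.0% in Apical and Basal and between 6.05% and 18.2% elsewhere. In this 6-row gene the other 5 rows shared the rest, none of them above 23.1% on average in any region. Pis07004.t1 held between 25.1% and 54.9% in Apical and Basal and was listed at 0 in 10 of the other 12 libraries. Its share there was 0.972% at most. Pis00742.t1 held between 32.2% and 83.0% in Apical and Basal and at least 96.8% in all others. Pis07004 and Pis00742 were thus genes in which a further row was found almost wholly in Apical and Basal libraries.

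Stem stood apart in 7 genes. The share of Pis14078.t1 was between 79.5% and 97.2% in Stem and 70.3% or less elsewhere. Pis16929.t1 was lower in Stem, between 27.3% and 51.0%, against 66.8% or more in the other 16 libraries, and its total was 26.0 ± 3.60 TPM in Stem and 176 ± 54.2 TPM in Apical (SD, n = 4 each). Pis03423.t8 held 44.5%, 36.0%, 38.3% and 44.8% in Stem and at most 1.61% in Apical, with Stolon between 17.5% and 29.1%. The order of its means from Apical and Basal through Petiole and Stolon to Stem is the order seen for Pis17336.t1. Pis13493.t1 lay between 21.1% and 48.0% in Stem and at 12.8% or less elsewhere, in a gene of 7.18 to 16.5 TPM.

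Several of the widest differences rested on rows that were present in some libraries and listed at 0 in others of the same region. In Pis09849, the fourth widest at 72.4 points, the share of Pis09849.t2 was 0%, 21.8%, 0% and 12.1% in Apical, and 53.1%, 90.3%, 82.5% and 97.5% in Stolon. Stem held 93.6%, 79.6%, 5.60% and 91.6%, and Pis09849.t3 was above 0 in Apical replicates 1 and 4 alone, at 5.23 and 10.7 TPM. The share of Pis02850.t1 was 100%, 50.7%, 100% and 7.62% in Apical and 2.60% to 14.2% in Stolon, and the libraries of Basal, which gave the highest mean, ran from 29.5% to 100%. In Pis11714 the switching row was at 0 in 3 Basal libraries and at 42.2% in the fourth, and the total of the gene was 0 in 2 of 4 Stem libraries, whose share is undefined and was left out of the mean. The share of Pis15918.t3 was 0 in all 4 Petiole libraries and above 0 in all 4 Apical libraries, but in Stem it was 34.4% in replicate 1 and 0 in the other 3. When Apical replicate 4 was left out, where its total was 13.4 TPM against 4.35 to 5.68 TPM in the other Apical libraries, Pis15918 was below the minimum level and did not pass. The share of Pis01665.t1 was 0 in 3 Petiole libraries and 35.6% in replicate 1. The region means of the totals of Pis09849 and Pis02850 lay between 5.15 and 14.7 TPM.

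The genes with the most rows were Pis13091 with 9 and Pis04837 with 8. The share of Pis13091.t10 was 55.8%, 47.7%, 0% and 52.2% in Stem and 0%, 35.4%, 0% and 0% in Petiole, so the 2 regions of its widest difference overlapped and it was just past the limit of 30 points. The share of Pis04837.t7 was 2.46%, 0%, 0% and 6.93% in Apical and 37.6%, 37.2%, 26.9% and 32.5% in Stem. Apical and Basal libraries were at 10.2% or less and all others at 11.0% or more. In Apical the rows Pis04837.t3 and Pis04837.t2 held 28.2% and 26.1% on average, and in Stem 2.31% and 3.62%. The remaining genes next to the limit, Pis15626 and Pis03564, differed in kind: Stolon and Basal libraries of Pis15626.t1 overlapped, at 65.9% to 100% and 36.2% to 73.6%, while Apical and Stem libraries of Pis03564.t1 did not, at 36.2% to 84.2% and 16.1% to 32.6%. Its Apical maximum was replicate 4.

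Whether the choice of genes held in libraries that had no part in it was examined by applying the rule to 3 replicate numbers and reading the difference in the 5 libraries of the remaining number. Without number 1 the rule gave 150 genes, its upper limit, with a median difference of 40.3 points, and in the libraries of number 1 the same row and pair of regions differed by 5.84 points in the median, in the same direction in 85 genes and by 30 points or more in 35. Without number 2 these values were 150 genes, 39.0 and 8.37 points, 85 and 31 genes. Without number 3 they were 150 genes, 39.7 and 5.59 points, 83 and 39 genes. Without number 4, which includes Apical replicate 4, the rule gave 114 genes with a median of 37.1 points, and the 113 that could be read had a median of 15.7 points, with 71 in the same direction and 44 at 30 points or more. A left-out difference of exactly 0 was not counted as the same direction. Such ties occurred where the row held an equal share in the left-out libraries of both regions, as in Pis15402 for number 1. The genes not in the same direction are thus not all reversed. In the median gene the difference was smaller in the left-out libraries than in those that chose it, for each of the 4 numbers. With Apical replicate 4 left out as well, an alternative chosen after seeing the data, the medians in the left-out libraries were 13.3, 9.25 and 13.8 points for numbers 1, 2 and 3, from 138, 125 and 127 genes.

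For the genes whose choosing libraries did not overlap, the median difference in the left-out libraries was 18.0, 12.8, 10.6 and 17.8 points for numbers 1 to 4, against 0 in each case for genes with overlapping libraries. Both sets include ties at exactly 0. The 4 choices share most of their libraries and many of their genes, so they are not 4 separate checks.

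**Figure D5:**
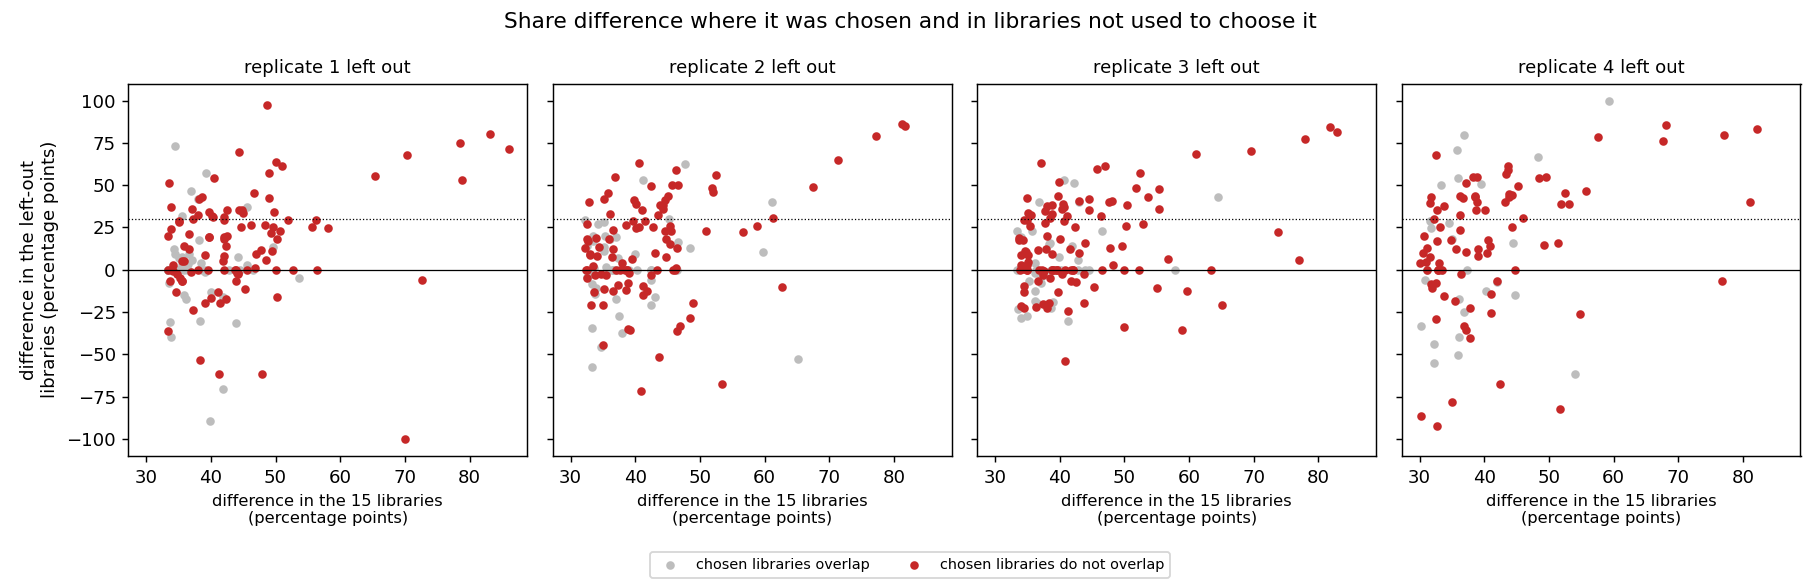
Difference in share, in percentage points, of the genes chosen in 15 libraries (x axis) against the same difference in the 5 libraries of the left-out replicate number (y axis), in 4 panels. Points at 0 or below are genes whose difference was absent or turned in the left-out libraries, and the genes without overlap among the chosen libraries lie higher, with medians of 10.6 to 18.0 points against 0.

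The summed levels of these genes were also compared between regions. With limma on log2(summed TPM + 1), over all 15794 genes tested and at an adjusted p under 0.05, 0 of the 122 totals were called between Basal and Apical (background 1.66%, with 1.6% higher and 0.0633% lower in Basal), with 19 at an unadjusted p under 0.05 (background 13.9%). That background depended on the fit: it was 2.68% with the replicate number as a block and 0.0151% with only these 2 regions. Between Petiole and Apical 71 were called (background 54.6%), 38 higher (background 40.4%) and 33 lower (14.2%) in Petiole. Between Stem and Apical 82 were called (background 69.9%), 48 higher (53.2%) and 34 lower (16.7%) in Stem. Between Stolon and Stem 52 were called (background 48.7%), 25 higher (15.4%) and 27 lower (33.3%) in Stolon. The comparisons share their Apical and Stem libraries, and nothing is read from the shares because the regions are those of the rule.

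With that deviating Apical library, replicate 4, left out, 84 totals were called between Petiole and Apical (background 60.4%), 94 between Stem and Apical (75.3%), 66 between Stolon and Stem (57.6%) and 0 between Basal and Apical (1.27%). The split into higher and lower totals depended on the scaling. After median-of-ratios rescaling 27 were higher (background 31.6%) and 43 lower (23.6%) in Petiole than in Apical. In Stem 27 were higher (40.1%) and 45 lower (27.7%) than in Apical, and in Stolon 33 were higher (22.9%) and 23 lower (26.6%) than in Stem. The median log2 difference of all genes moved from 0.34 to 0.12, from 0.61 to 0.19 and from -0.20 to -0.02, and that of the 122 from 0.07 to -0.18, from 0.20 to -0.23 and from -0.14 to 0.06. The largest differences with a lower total in Stem were in Pis14142 at -6.55 (SE 0.17) and Pis03113 at -5.10 (SE 0.70), whose totals were 5380 TPM in Apical and 258 TPM in Stem. Those with a higher total in Stem were in Pis10762 at 5.49 (SE 0.22), from 10.4 to 496 TPM, and in Pis15521 at 3.31 (SE 0.37), from 7.77 to 73.9 TPM. In Pis10762 and Pis15521 the switching row held 78.5% and 56.0% in Apical replicate 4, and the Apical libraries ran from 0 to 78.5% and from 0 to 83.4%.

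Calls in the fit of single rows rest on the same values, libraries and regions that chose the genes, so rows of a gene called in opposite directions were counted as a description and test nothing about the members. Of 119 members with rows tested, 25 had at least 1 row higher and 1 lower in Stem than in Apical, 18 in Petiole than in Apical and 3 in Stolon than in Stem. The background over the 2041 genes with several rows tested was 2.45%, 1.67% and 0.539%, and it contains these members. With only the 2 compared regions in the fit the counts were 14 for Stem against Apical (background 1.71%) and 10 for Petiole against Apical (background 0.952%). Between Basal and Apical the count was 0 (background 0%), with 13 members and 30 genes in all (1.47%) at unadjusted p values under 0.05. Without Apical replicate 4 the counts were 19 for Stem against Apical (background 2.04%), 15 for Petiole against Apical (1.54%) and 4 for Stolon against Stem (0.895%).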

How the data were processed

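Poly-A RNA from 20 Pistia libraries, 4 from each of 5 regions, was sequenced as paired reads of 150 bp, per the labels' protocols. The authors deposited TPM values, and the submitters' processing notes name Salmon 1.10.0. As for the indexed transcripts, their source is not given in the sources used here. In every row the highest value was above 2.00 TPM, and library totals were 998999 to 999582 TPM. TPM carries no depth, so no counting interval or floor is given. Rows of a gene share sequence and Salmon divides reads among them, so shares of rows are less certain than totals. No 2 libraries held equal values above 0.

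Shares, means and standard deviations were computed in Python 3.11.15 with pandas 2.3.3. A library with a gene total of 0 gave no share for that gene. Totals and rows were fitted with limma 3.58.1 in R 4.3.3 on log2(TPM + 1), with a mean-variance trend, all 5 regions in 1 fit and region as the only term. Features with at least 1 TPM in at least 4 libraries were tested, and features with a Benjamini-Hochberg adjusted p below 0.05 were called. The pseudocount makes differences of low features smaller. The labels say only that the samples are biological replicates, so p-values measure the spread between these samples. The code for the rule and the fit was tested on simulated data.

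Same-numbered libraries of 2 regions were correlated on their deviations from the region means. For Stem against Apical all 4 correlations exceeded 0.1 (0.114, 0.173, 0.101 and 0.183), so the numbers were taken to pair these libraries. The main fit and its SE values did not use this pairing, and counts with the replicate number as a block are given below. For Basal against Apical, Petiole against Apical and Stolon against Stem at least 1 did not. For Basal against Apical the correlations were 0.253, 0.354, 0.308 and -0.023 for numbers 1 to 4. The pair below the limit thus held the deviating Apical replicate 4, and pairing in the other numbers was not set aside.

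Genes were named by a rule: the 10 widest differences, the 2 highest totals per region among genes with no overlap and different leading rows, the 3 genes on each side of the limit, the 2 largest differences in total in each direction for Stem against Apical, and the 2 genes with the most rows. Others are marked as chosen after their values were seen. The members, the lists and the rule were chosen with earlier results of these data known. Marker and splicing-factor lists were not used because the identifiers carry no names. The alternatives were other limits, median shares, shares of mean TPM, rescaling by median of ratios, a pseudocount of 0.1, no filter, 2-region fits, the replicate number as a block, and leaving out libraries.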

Additional observations from a re-analysis of the deposited data

Results flagged for a closer look

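Of 234 groups of 4 libraries examined for the named genes, 16 held a library whose gap to the nearest of the others took up most of the range of its group. Chance alone gives about 1 in 20 such groups. No cause was tested for any of them.

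Shares that stood apart included Pis14142.t1 at 48.6% in Apical replicate 4, where the other 3 lay at 93.4% to 98.0%. The same row was at 24.9% in Stem replicate 1, where the others lay at 8.80% to 11.5%. The share of Pis09849.t2, in a gene of low total, was 5.60% in Stem replicate 3, against 79.6% to 93.6% in the others. The share of Pis17116.t6 was 19.7% in Stem replicate 4, against 44.3% to 48.1%.

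Rows absent from the other 3 libraries of a region appeared in a further 5 cases. These were Pis11714.t1 at 42.2% in Basal replicate 4, Pis15918.t3 at 34.4% in Stem replicate 1, Pis01665.t1 at 35.6% in Petiole replicate 1, Pis13091.t10 at 35.4% in Petiole replicate 2 and Pis15521.t1 at 9.12% in Petiole replicate 2. The reverse was seen for Pis13091.t10, at 0% in Stem replicate 3 against 47.7% to 55.8%, and for Pis00514.t2, at 0% in Basal replicate 3 against 56.6% to 65.3%.

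Totals stood apart in 5 groups. Pis19461 was at 95.7 TPM in Stem replicate 1, against 71.9 to 74.2 TPM. Pis15918 was at 13.4 TPM in Apical replicate 4, against 4.35 to 5.68 TPM, and at 3.39 TPM in Basal replicate 1, against 6.81 to 7.17 TPM. Pis03113 was at 723 TPM in Stem replicate 3, against 36.5 to 149.9 TPM, and Pis15521 was at 31.7 TPM in Petiole replicate 3, against 64.1 to 65.8 TPM.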

How the results depend on the processing

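The number of genes past the rule followed its limits and the libraries used. Counts here are without the upper limit of 150 genes. It was 184 at a minimum of 2 TPM, 62 at 10 TPM, 369 at a difference of 0.2, 41 at 0.4 and 195 with shares of the region's mean TPM. With different leading rows there were 98, 36, 113 and 32 genes under the first 4 of these settings. Among all eligible genes these were 245 of 2031, 138 of 1445 and, for both limits of the difference, 193 of 1808. Without overlap there were 39 at 10 TPM (background 23.7%), 148 at 0.2 and 30 at 0.4 (23.2% for both). Leaving out replicates gave 91 to 220 genes past the rule, 58 to 95 with different leading rows and 61 to 148 without overlap (background 25.6% to 41.9%). Different leading rows were found in 196 of 1804 eligible genes without Stem replicate 1, where the count was 58. They were found in 215 of 1804 without replicate number 3, where it was 95. Without Apical replicate 3 there were 190 genes, 114 of them without overlap (background 29.3%), and fewer libraries overlap less often by construction. Median shares gave 145 genes, rescaling 127 and dropping minor rows 121. The cause of the other shifts was not tested.

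Among totals, Basal against Apical gave 0 to 2 members when a replicate was left out (background 2.39% without Basal replicate 3, where it was 2). With the replicate block it gave 1 (background 2.68%). With the replicate block, Stem against Apical gave 86 members (background 73.1%) in place of 82 (69.9%). Members with rows in opposite directions were 30 (background 3.14%) in place of 25 (2.45%). Apart from Basal against Apical, no count of members moved by over 1.5 times under the block. Over all genes the block moved the totals called for Basal against Apical from 262 to 423 and the genes with rows in opposite directions from 11 to 17 for Stolon against Stem and from 0 to 1 for Basal against Apical. The share counts come from no test and have no paired version. Leaving out a replicate gave 64 to 84 members for Petiole against Apical, 77 to 94 for Stem against Apical and 45 to 66 for Stolon against Stem. The background moved as well. At the highest counts, without Apical replicate 4, it was 60.4%, 75.3% and 57.6%. At the lowest counts it was 49% without Petiole replicate 1, and 65.9% and 42.6% without Stem replicate 4. Rows in opposite directions were found in 14 to 20, 19 to 28 and 2 to 4 members, and in 0 for Basal against Apical. Their background moved too. For Petiole against Apical it was 1.18% without Petiole replicate 2 (14 members) and 2.56% without Apical replicate 3 (20). For Stem against Apical it was 2.04% without Apical replicate 4 (19) and 2.96% without Apical replicate 3 (28). For Stolon against Stem it was 0.5% without Stem replicate 2 (2) and 0.895% without Apical replicate 4 (4). With only the 2 compared regions in the fit, Petiole against Apical gave 10 members with such rows (background 0.952%) and Stem against Apical 14 (1.71%).

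Small differences in total between Stem and Apical turned sign. The log2 difference ran from -0.23 to 0.20 for Pis17336, from -0.048 to 0.19 for Pis19461 and from -0.089 to 0.44 for Pis04837 when a replicate was left out. After rescaling it was -0.41 for Pis19461, -0.16 for Pis03564 and -0.38 for Pis04837. TPM gives no depth, so the precision of a share at low total is unknown.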
